A study of Sus scrofa with 12 samples.

Results

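The circular RNAs (circRNAs) of SOX5, PPP2R1B and CNTRL were followed across 12 pig livers. They comprised 37 of the 24177 circRNAs in the deposited circRNA table, of which 22 came from SOX5, 4 from PPP2R1B and 11 from CNTRL, and they were set beside the 3 rows of these genes among the 21169 rows of the gene table. The members were all circRNAs whose host gene is one of these names. CNTRL carries no symbol in the files, and its rows were found through the NCBI gene number in their deposited description, which belongs to CNTRL in the RefSeq gene table. The genes were chosen by the back-splice values of Hezuo against Bama livers in the cold, so their cold values are a description without a test, and of the members only the breed difference at room temperature was tested.

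The livers came from Hezuo pigs, which are native to the cold highlands of Gansu, and Bama pigs, small animals of subtropical Guangxi. The study asked which RNAs of the liver bear on how Hezuo pigs withstand cold. There were 4 groups of 3 pigs, namely Hezuo pigs in the cold (-15 ± 2 °C), Bama pigs in the cold, Hezuo pigs at room temperature (23 ± 2 °C) and Bama pigs at room temperature, and every liver was taken on day 15. Pigs are numbered 1 to 3 in each group by the labels, with the same numbers at both temperatures. Whether same-numbered pigs of a breed are separate animals is not stated, and each library was treated as a separate animal. Y-linked counts, given below, differed between the temperatures for Bama pigs 1 and 3. The labels name no genetic modification or drug, and give neither age nor sex. The RNA was depleted of ribosomal RNA, so circRNAs, which have no poly(A) tail, were kept.

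A circRNA forms when the end of a later exon is spliced back to the start of an earlier exon of the same transcript, and the closed loop has no free end for exonucleases to attack. Only reads that cross this back-splice junction tell a circRNA from the linear RNA of its host. SOX5 encodes a transcription factor of the SOX D group with an HMG box for DNA binding, best known for its work with SOX6 in cartilage. PPP2R1B encodes the beta form of the scaffold subunit of protein phosphatase 2A (PP2A), which holds the catalytic subunit and a regulatory subunit together. CNTRL encodes centriolin, a centrosome protein of the subdistal appendages of the mother centriole that also acts in the last steps of cell division.

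Back-splice counts totalled 39117 to 75616 per library and gene counts 20041285 to 30188037, so that 1 back-splice read was worth 13.2 to 25.6 RPM, the deposited depth-scaled unit. Levels of circRNAs are given below as back-splice CPM, counts scaled to library size after TMM (trimmed mean of M values) correction. Counts of the Y-linked gene DDX3Y were 1656 to 2407 in the Hezuo livers in the cold, 2284, 0 and 3769 in Bama livers 1, 2 and 3 in the cold, 1331 to 1844 in the Hezuo livers at room temperature and 0 to 3 in the Bama livers at room temperature. At room temperature, breed and Y-linked RNA therefore cannot be told apart. Hepatocyte markers led the marker lists in every library, with summed values of 20000 to 53600, 12000 to 39300, 51000 to 64000 and 46200 to 48700 FPKM (fragments per kilobase, scaled to library size) in the Hezuo cold, Bama cold, Hezuo room temperature and Bama room temperature livers, and every marker that was found was above 0 in all libraries.

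In each host, 1 circRNA held the most counts over the 12 libraries together. The 443-base circle of SOX5 (chromosome 5, 49813301 to 49859235, plus strand) held 510 of the 1004 back-splice counts of its host over the 12 libraries, or 50.8%. The 739-base circle of PPP2R1B (chromosome 9, 39494895 to 39504434, minus strand) held 342 of 438 counts, or 78.1%. The 1709-base circle of CNTRL (chromosome 1, 261142021 to 261155614, plus strand) held 341 of 449 counts, or 75.9%. In single livers the SOX5 circle held 23.3 to 42.5% of its host's counts in the 6 Hezuo livers, against 40.5 to 71.3% in the 6 Bama livers, and in Hezuo liver 3 at room temperature its 22 counts were fewer than the 29 of the 2403-base circle. Among all circRNAs these ranked 140, 222 and 223 by counts. Coordinates and spliced lengths are those of the deposited table, whose genome build is not given in the sources used here.

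Many circles of a host shared an end with another circle. At SOX5, 4 circles began at 49813301 and carried 58.4% of the counts of the host, and another 5 began at 49859025 and carried 18.8%. At PPP2R1B, 3 of the 4 circles had 39494895 as their lower coordinate, with 91.8% of the counts. At CNTRL, 5 circles began at 261142021, with 83.1% of the counts, and 3 ended at 261155614, with 79.1%.

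Where 2 circles of a host met in a single stretch and another circle spanned both, the deposited spliced lengths added up to the base. They must do so if the same exons are counted in each. The inner structure of the circles was not observed here. The 533-base and 380-base circles of PPP2R1B overlapped over 174 bases (39502835 to 39503008), and their lengths less this overlap came to 739 bases, the length of the main circle that spans both. The 1515-base and 381-base circles of CNTRL overlapped over 187 bases (261153029 to 261153215), and their lengths less the overlap came to 1709 bases. At SOX5, the 211-base circle of 1 exon (49859025 to 49859235) ended where the 443-base circle ends. The 2403-base and 2178-base circles of exon and intron began at the start of this exon. The 2635-base and 2410-base circles began where the 443-base circle begins and ended where the 2403-base and 2178-base circles end, and their lengths again matched to the base.

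By the deposited annotation, all 4 circles of PPP2R1B and all 11 of CNTRL were made of annotated exons. The SOX5 circles were more mixed, with 10 of annotated exons (750 counts), 7 of exon and intron (225 counts), 3 antisense (8 counts), 1 intronic (5 counts) and 1 of a single exon (16 counts). The antisense circles lie on the strand opposite to SOX5 and are counted in its sum.

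**Figure D1:**
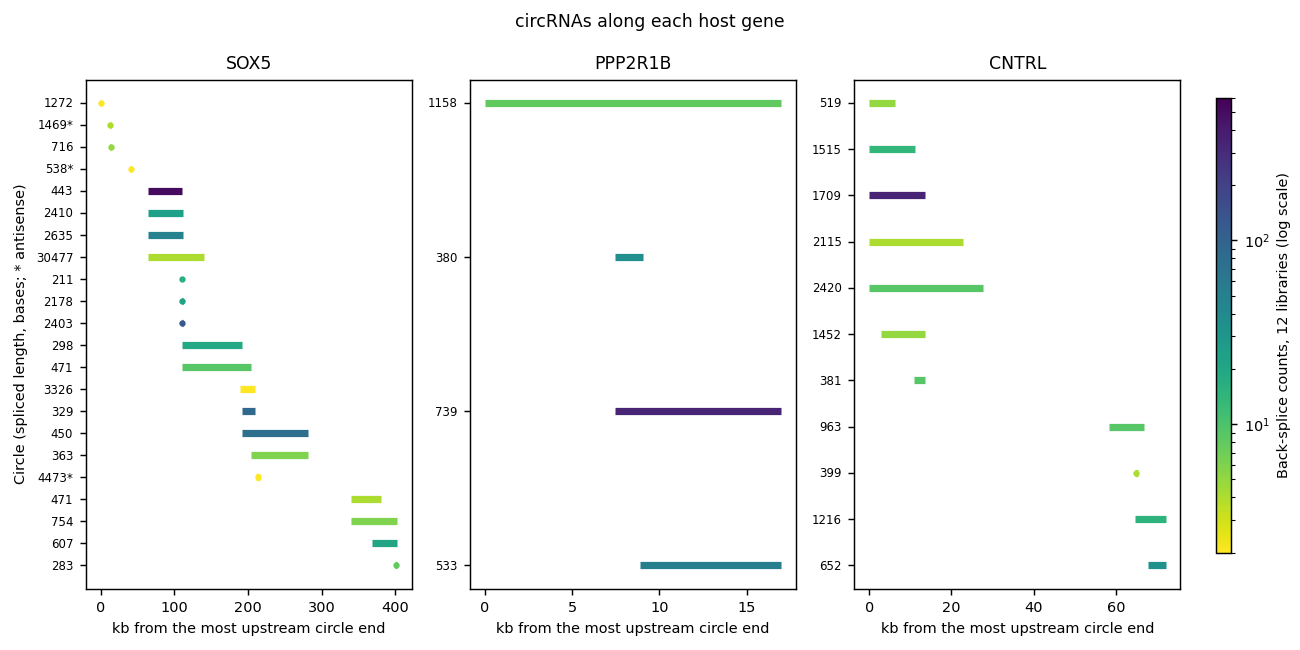
The 37 circRNAs drawn as bars along their host genes, with distance in kb from the most upstream circle end on the x axis and 1 row per circle, labelled by its spliced length in bases (an asterisk marks an antisense circle). Colour gives the back-splice counts over the 12 libraries on a log scale, and the darkest bars are the 443-base, 739-base and 1709-base circles with 510, 342 and 341 counts.

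In the cold, the main SOX5 circle was lower in Hezuo livers than in Bama livers. Its level was 679, 163 and 239.9 CPM in Hezuo livers 1, 2 and 3 in the cold, against 1019, 1463 and 2794 CPM in Bama livers in the cold. At room temperature it was 432, 215 and 458 CPM in Hezuo livers, against 790.4, 588 and 745 CPM in Bama livers. All 3 Bama livers lay above all 3 Hezuo livers at both temperatures, and Bama liver 3 in the cold stood highest of the 12. The log2 fold change of Hezuo over Bama was -2.28 ± 0.36 (SE) in the cold, a description. It was -3.09 without Hezuo liver 1 and -1.70 without Bama liver 3 in the cold. At room temperature the fold was -0.94 ± 0.36, which did not pass (edgeR quasi-likelihood test, Benjamini-Hochberg adjusted p = 0.502 over 9032 circRNAs).

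The main PPP2R1B circle went the other way. It stood at 833, 793 and 1120 CPM in Hezuo livers in the cold, against 102, 219 and 150.0 CPM in Bama livers in the cold. In livers kept at room temperature it stood at 824, 859.6 and 811 CPM in Hezuo livers, against 232.5, 625 and 276 CPM in Bama livers. The 6 Hezuo livers lay above every Bama liver, and Bama liver 2 was the highest of its breed at both temperatures. Counts behind the values of the Bama livers in the cold were 4, 12 and 8. The fold of Hezuo over Bama was 2.50 ± 0.43 in the cold. Among room temperature livers it was 1.15 ± 0.39 and did not pass (edgeR, adjusted p = 0.313), and it was 1.66 ± 0.46 without Bama liver 2 at room temperature (edgeR, adjusted p = 0.0736). Without Bama liver 1 at room temperature it was 0.86 ± 0.44 (edgeR, adjusted p = 0.689), and without Bama liver 3 it was 0.97 ± 0.44 (edgeR, adjusted p = 0.712).

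CNTRL resembled PPP2R1B in the cold and was more scattered. The 1709-base circle had 767, 1003 and 239.9 CPM in Hezuo livers in the cold, against 178, 91.4 and 56.2 CPM in Bama livers in the cold. Its values at room temperature were 805, 1096 and 1019 CPM in Hezuo livers, against 573, 882 and 138 CPM in Bama livers. The breeds did not overlap in the cold and overlapped at room temperature, where Bama liver 2 exceeded Hezuo liver 1. The values of the Bama livers in the cold came from 7, 5 and 3 counts. The fold of Hezuo over Bama was 2.65 ± 0.46 in the cold and 0.89 ± 0.38 at room temperature, where it did not pass (edgeR, adjusted p = 0.572). Without Bama liver 3 at room temperature it was 0.43 ± 0.42 and without Bama liver 2 it was 1.43 ± 0.45.

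**Figure D2:**
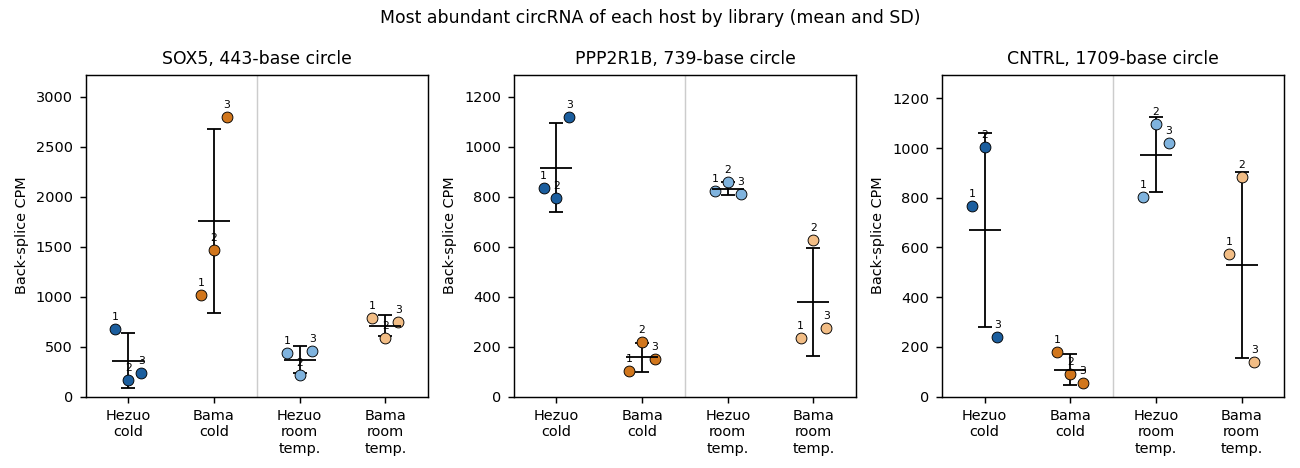
Back-splice CPM of the most abundant circRNA of SOX5, PPP2R1B and CNTRL in each of the 12 livers (points, numbered by replicate), with the mean and SD of each group of 3. Mean levels in the cold were 361 in Hezuo and 1759 in Bama for the SOX5 circle, 915 in Hezuo and 157 in Bama for the PPP2R1B circle, and 669.9 in Hezuo and 109 in Bama for the CNTRL circle.

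The order of the 4 groups differed between the hosts. For the SOX5 circle it ran from Bama cold (1759 ± 923 CPM, SD, n = 3 livers in each group) over Bama room temperature (708 ± 106) and Hezuo room temperature (368 ± 133) to Hezuo cold (361 ± 278), and the last pair differed by less than their SD. For the PPP2R1B circle it ran from Hezuo cold (915 ± 178) over Hezuo room temperature (832 ± 25.0) and Bama room temperature (378 ± 215) to Bama cold (157 ± 59.1), and the first pair differed by less than the SD in the cold. For the CNTRL circle it ran from Hezuo room temperature (973 ± 151) over Hezuo cold (669.9 ± 391) and Bama room temperature (531 ± 374) to Bama cold (109 ± 62.9), where both middle groups and their upper neighbour lay within the larger SD of each pair.

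Between the temperatures, the Bama livers held the larger folds. Cold over room temperature, the log2 fold of the SOX5 circle was -0.03 ± 0.38 in Hezuo and 1.31 ± 0.34 in Bama. For the PPP2R1B circle it was 0.14 ± 0.37 in Hezuo and -1.21 ± 0.44 in Bama, and for the CNTRL circle -0.55 ± 0.38 in Hezuo and -2.30 ± 0.46 in Bama. These folds share the cold livers on which the genes were chosen, so they are descriptions, and the difference between the breeds in them is part of that choice.

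At the level of the host, back-splice counts were summed over all circles. The PPP2R1B sum was 964, 956 and 1419 CPM in Hezuo livers in the cold, against 153, 384 and 169 CPM in Bama livers in the cold. At room temperature it was 1020.0, 1074 and 1082 CPM in Hezuo livers, against 248, 974 and 317 CPM in Bama livers. Hezuo lay above Bama without overlap at both temperatures, by a narrow margin over Bama liver 2 at room temperature. That margin rested on library scaling, since Bama liver 2 had 53 counts there, against 52, 50 and 52 in the Hezuo livers. Of single circRNAs, 12.2% separated the breeds at room temperature in either direction, and the share over host sums was not computed. The fold of Hezuo over Bama at room temperature was 1.11 ± 0.32, just short of the threshold (edgeR, adjusted p = 0.0627 over 3755 hosts). The call depended on the livers fitted, and 3 of the 12 fits without 1 library passed. Without Bama liver 2 at room temperature the fold was 1.99 ± 0.39 with an adjusted p of 0.000152 by edgeR, whereas without Bama liver 1 it was 0.76 ± 0.36 (edgeR, adjusted p = 0.652) and without Bama liver 3 it was 0.85 ± 0.36 (edgeR, adjusted p = 0.552). The adjusted p was 0.0494 without Bama liver 1 in the cold and 0.0393 without Bama liver 3 in the cold, with a fold of 1.12 in both fits, and 0.0302 with only the room temperature livers fitted. In bulk liver, a lower sum from fewer cells that make the circle and from less of it per cell cannot be told apart.

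The SOX5 sum overlapped between the breeds at room temperature, where its main circle did not. It was 1600.0, 419.8 and 579.8 CPM in Hezuo livers in the cold, against 1733, 2414 and 3918 CPM in Bama livers in the cold, without overlap. At room temperature the sum was 1040.0, 924 and 1768 CPM in Hezuo livers, against 1565, 1452 and 1573 CPM in Bama livers, with Hezuo liver 3 highest. The fold at room temperature was -0.25 ± 0.27 (edgeR, adjusted p = 0.888). The CNTRL sum was 855, 1213 and 319.9 CPM in Hezuo livers in the cold, against 357, 292.5 and 169 CPM in Bama livers in the cold. At room temperature the CNTRL sum was 844, 1246 and 1123 CPM in Hezuo livers, against 929.9, 1103 and 386 CPM in Bama livers. Its breeds overlapped at both temperatures, and its fold at room temperature was 0.47 ± 0.31 (edgeR, adjusted p = 0.726).

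In the cold, the folds of the host sums were -1.58 ± 0.27 for SOX5, 2.25 ± 0.36 for PPP2R1B and 1.63 ± 0.36 for CNTRL. Without Hezuo liver 1 in the cold the SOX5 fold was -2.38, and without Bama liver 3 in the cold it was -1.17. Without Hezuo liver 2 in the cold the CNTRL fold was 1.15. Without Bama liver 2, the cold Bama liver with no Y-linked RNA, the PPP2R1B fold in the cold was 2.82 ± 0.44. None of the 3 hosts was called at room temperature by edgeR, against 0.799% of hosts in all, with 1 of 3 below an unadjusted p of 0.05, against 8.39% of hosts. DESeq2 called none of them either, against 0.453% of hosts, again with 1 of 3 below an unadjusted p of 0.05, against 4.95% of hosts.

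The deposited gene rows of the 3 hosts gave folds near 0 between the breeds at room temperature. SOX5 had 12.2, 8.72 and 8.84 FPKM in Hezuo livers in the cold against 12.7, 14.7 and 21.1 FPKM in Bama livers in the cold, and 12.2, 17.9 and 15.4 FPKM in Hezuo livers at room temperature against 16.4, 17.1 and 18.6 FPKM in Bama livers at room temperature. PPP2R1B had 22.0, 20.4 and 23.3 FPKM in Hezuo livers in the cold against 23.5, 21.5 and 26.5 FPKM in Bama livers in the cold, and 16.3, 11.03 and 16.5 FPKM in Hezuo livers at room temperature against 16.0, 18.2 and 14.6 FPKM in Bama livers at room temperature. CNTRL had 2.03, 2.63 and 1.72 FPKM in Hezuo livers in the cold against 3.22, 2.78 and 2.40 FPKM in Bama livers in the cold, and 2.49, 2.95 and 2.29 FPKM in Hezuo livers at room temperature against 2.98, 2.53 and 3.03 FPKM in Bama livers at room temperature. The breeds overlapped for all 3 genes at room temperature, and in the cold for PPP2R1B and CNTRL, whereas SOX5 in the cold was higher in every Bama liver in FPKM but not after TMM scaling (50.7, 36.8 and 40.0 CPM in Hezuo livers, against 42.1, 51.1 and 69.0 CPM in Bama livers).

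Over all genes, the median log2 ratio of mean FPKM, Hezuo over Bama, was -0.31 in the cold and -0.21 at room temperature, so the tests used TMM scaling. On that scale the folds of Hezuo over Bama at room temperature were 0.04 ± 0.20 for SOX5, 0.05 ± 0.18 for PPP2R1B and 0.04 ± 0.16 for CNTRL (edgeR, adjusted p = 0.939, 0.92 and 0.923 over 13532 genes). Their sign turned when 1 of several livers was left out. In the cold the folds were -0.35 ± 0.20, 0.18 ± 0.18 and -0.11 ± 0.16. None of the 3 genes was called at room temperature by edgeR, against 1.08% of genes, and none fell below an unadjusted p of 0.05, against 19.8% of genes. DESeq2 called none of the 3 either, against 7.66% of genes. Cold over room temperature, the gene folds were -0.73 ± 0.20 in Hezuo and -0.34 ± 0.20 in Bama for SOX5, 0.53 ± 0.18 in Hezuo and 0.40 ± 0.18 in Bama for PPP2R1B, and -0.29 ± 0.16 in Hezuo and -0.14 ± 0.16 in Bama for CNTRL.

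The circular to linear ratio set each host's back-splice counts against its own gene counts. For PPP2R1B it was 19.1, 18.1 and 24.5 back-splice counts per 1000 gene counts in Hezuo livers in the cold, against 2.77, 8.87 and 2.66 in Bama livers in the cold. In livers kept at room temperature it was 26.2, 40.2 and 30.2 in Hezuo livers, against 7.23, 22.8 and 11.8 in Bama livers. The breeds did not overlap at either temperature, and the share of all hosts whose ratios separate in this way was not computed. The log2 ratio differed by 1.30 ± 0.38 at room temperature (limma, adjusted p = 0.0742 over 3740 hosts), and by 1.82 ± 0.43 without Bama liver 2 at room temperature (limma, adjusted p = 0.00702), the 1 of 12 fits without a library that passed. Without Bama liver 1 at room temperature the difference was 0.91 ± 0.42 (limma, adjusted p = 0.605). With only the room temperature livers fitted the adjusted p was 0.048.

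The SOX5 ratio was 68.4, 21.1 and 29.6 back-splice counts per 1000 gene counts in Hezuo livers in the cold, against 67.3, 92.8 and 99.3 in Bama livers in the cold. Among room temperature livers it was 40.3, 24.3 and 54.2 in Hezuo livers, against 52.3, 38.9 and 51.4 in Bama livers. Hezuo liver 1 in the cold reached the Bama range, and the breeds overlapped at both temperatures (difference at room temperature -0.35 ± 0.28, limma, adjusted p = 0.761). The CNTRL ratio was 123, 114 and 49.5 in Hezuo livers in the cold, against 30.3, 34.0 and 18.9 in Bama livers in the cold. At room temperature it was 96.6, 117 and 152 in Hezuo livers, against 95.4, 122 and 46.4 in Bama livers, with overlap (difference 0.53 ± 0.37, limma, adjusted p = 0.719). None of the 3 ratios was called at room temperature, against 0.535% of hosts in all, with 1 of 3 below an unadjusted p of 0.05, against 9.12% of hosts. The sources used here do not say whether reads inside circles were also counted in the gene rows.

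**Figure D3:**
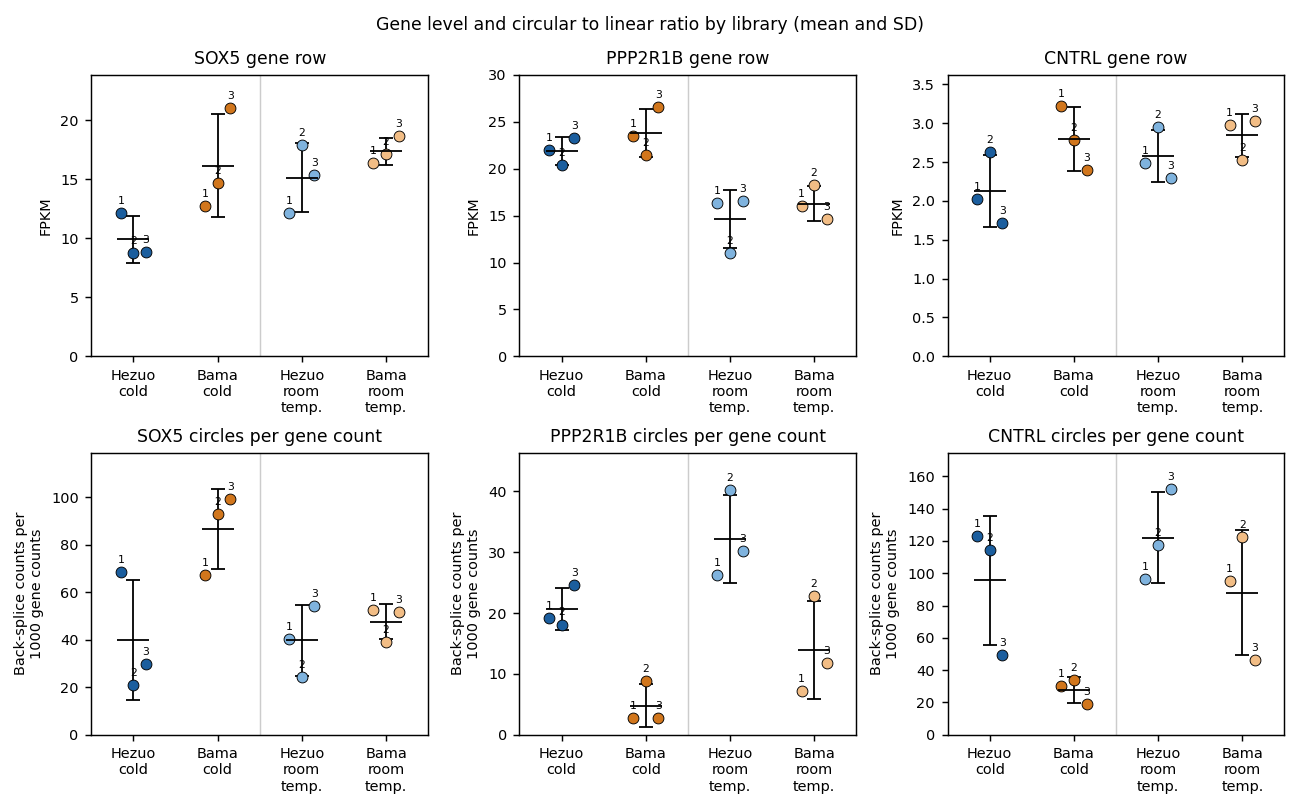
Gene level in FPKM (top row) and back-splice counts per 1000 gene counts (bottom row) of SOX5, PPP2R1B and CNTRL in the 12 livers, as points numbered by replicate with the mean and SD of each group of 3. For PPP2R1B the gene level averaged 21.9 FPKM in Hezuo and 23.8 FPKM in Bama in the cold, while its ratio averaged 20.6 in Hezuo and 4.77 in Bama.

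Over the single circles, 17 of the 37 members passed the filter on low counts (10 of SOX5, 3 of PPP2R1B and 4 of CNTRL). None of the 17 was called between the breeds at room temperature by edgeR, against 0.454% of all circRNAs tested, and 4 of the 17 were below an unadjusted p of 0.05, against 7.94% of all. DESeq2 called none either, against 0.244%, with 1 of the 17 below an unadjusted p of 0.05, against 3.27% of all. At room temperature, 1 circle was higher in every Hezuo liver than in every Bama liver, the PPP2R1B 739-base circle, against 5.54% of all circRNAs, and 2 were higher in every Bama liver, the SOX5 443-base and CNTRL 652-base circles, against 6.67% of all. In the cold, where the rule looked, 3 were higher in every Hezuo liver (5.09% of all) and 3 in every Bama liver (5.96% of all). The CNTRL 652-base circle is among the latter in CPM only, with tied counts.

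**Figure D4:**
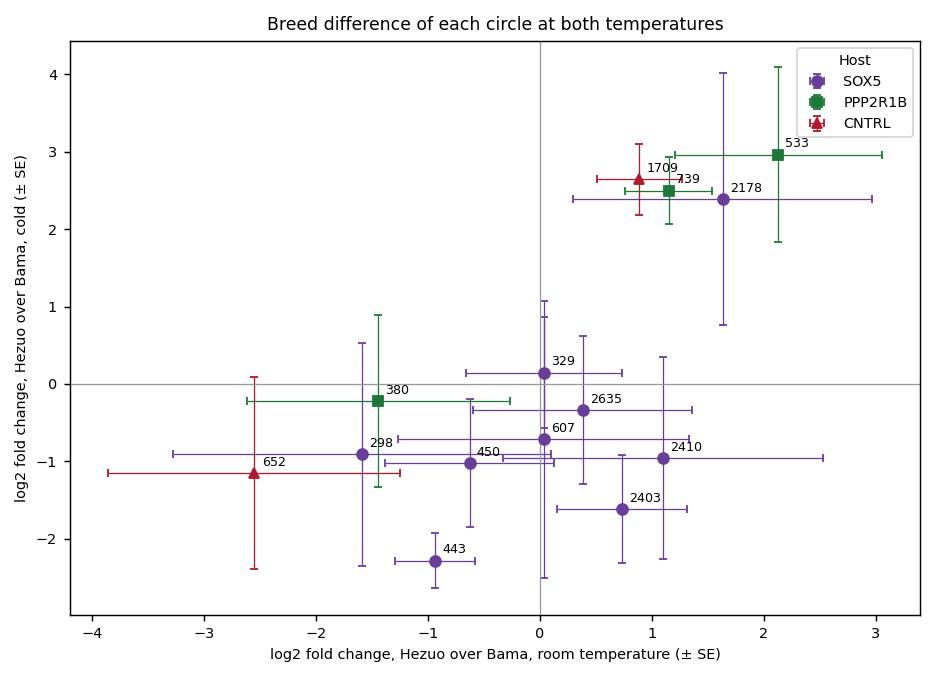
Log2 fold change of Hezuo over Bama for single circles, at room temperature on the x axis and in the cold on the y axis, with the SE of each as bars and the spliced length in bases as the label. Of the 17 circles that passed the filter, 14 are drawn, and 3 with no count in a whole group are left out. The SOX5 443-base circle lies at lower left and the PPP2R1B 739-base and 533-base and CNTRL 1709-base circles at upper right. Also at lower left are the SOX5 450-base and 298-base, PPP2R1B 380-base and CNTRL 652-base circles. The SOX5 329-base and 2178-base circles lie at upper right, the latter with folds of 2.39 ± 1.63 in the cold and 1.63 ± 1.34 at room temperature. The other SOX5 circles drawn lie at lower right.

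Among the smaller PPP2R1B circles, the 533-base circle followed the main circle. It had 109.6, 163 and 99.96 CPM in Hezuo livers in the cold, against 25.5, 18.3 and 0 CPM in Bama livers in the cold. In livers kept at room temperature it had 98.1, 215 and 229 CPM in Hezuo livers, against 0, 129 and 0 CPM in Bama livers, and Bama liver 2 was the only Bama liver there with a read. Its fold at room temperature was 2.13 ± 0.92 (edgeR, adjusted p = 0.576), and with that liver left out the Bama group had 0 counts. The 380-base circle showed no such order, with 21.9, 0 and 139.9 CPM in Hezuo livers in the cold against 25.5, 146 and 18.7 CPM in Bama livers in the cold, and 58.9, 0 and 20.8 CPM in Hezuo livers at room temperature against 15.5, 184 and 41.4 CPM in Bama livers at room temperature. The 1158-base circle, which spans the whole stretch, had 8 counts in all. It had 0, 0 and 3 counts in Hezuo livers and 0 in each Bama liver in the cold, and 2, 0 and 1 counts in Hezuo livers against 0, 2 and 0 in Bama livers at room temperature.

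The 652-base circle of CNTRL ran against the main circle of its host. It had 0, 46.6 and 39.98 CPM in Hezuo livers in the cold, against 51.0, 91.4 and 56.2 CPM in Bama livers in the cold. Among room temperature livers it had 19.6, 21.5 and 0 CPM in Hezuo livers, against 108, 55.1 and 110.4 CPM in Bama livers. In CPM every Bama liver exceeded every Hezuo liver at both temperatures, on 34 counts in all. In the cold this rested on library scaling, since Hezuo livers 2 and 3 and Bama liver 1 had 2 counts each. The fold at room temperature was -2.55 ± 1.30 (edgeR, adjusted p = 0.626). This circle lies near the other end of the gene (261209730 to 261214036) and does not overlap the 1709-base circle.

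The remaining CNTRL circles were sparse. The 1216-base circle had 1, 5 and 0 counts in Hezuo livers and 0 in each Bama liver in the cold, and 0, 2 and 1 counts in Hezuo livers against 0, 5 and 1 in Bama livers at room temperature. The 1515-base circle had 0, 0 and 1 counts in Hezuo livers against 5, 1 and 3 in Bama livers in the cold, and 0 in each Hezuo liver against 4, 0 and 0 in Bama livers at room temperature. Neither circle separated the breeds at either temperature. The 7 circles below the filter had 4 to 9 counts each.

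Taken over all CNTRL circles but the main circle, the level at room temperature was 39.2, 150.4 and 104 CPM in Hezuo livers, against 356, 221 and 248 CPM in Bama livers. The main circle thus held 95.3% (95% Wilson interval 84.5 to 98.7), 87.9% (77.1 to 94) and 90.7% (80.1 to 96.0) of CNTRL back-splice counts in Hezuo livers, against 61.7% (49.0 to 72.9), 80.0% (68.2 to 88.2) and 35.7% (20.7 to 54.2) in Bama livers. Both measures separated the breeds at room temperature without overlap, and for each the exact two-sided permutation test gave p = 0.1, the smallest that 3 against 3 livers allow (adjusted p = 0.3 over 6 tests). In the cold the share averaged 82.5% ± 7.37 in Hezuo and 38.2% ± 10.3 in Bama livers (SD, n = 3), as a description. Those Bama shares rested on 7 of 14, 5 of 16 and 3 of 9 counts. Their 95% Wilson intervals were 26.8 to 73.2%, 14.2 to 55.6% and 12.1 to 64.6%. The intervals cover counting error only.

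At SOX5, the circles other than the main circle overlapped between the breeds at both temperatures. Together they had 920.4, 256 and 339.9 CPM in Hezuo livers in the cold, against 714, 951 and 1125 CPM in Bama livers in the cold. At room temperature they had 608, 709 and 1311 CPM in Hezuo livers, against 775, 864 and 828 CPM in Bama livers, with overlap (difference 53.8 CPM, exact permutation p = 1, adjusted p = 1). The main circle's share of SOX5 counts averaged 40.9% ± 1.83 in Hezuo and 63.6% ± 6.74 in Bama livers in the cold. At room temperature it averaged 30.2% ± 9.87 in Hezuo and 46.1% ± 5.11 in Bama livers (SD, n = 3 each, exact permutation p = 0.2, adjusted p = 0.4). For PPP2R1B the share averaged 78.6% ± 3.13 in Hezuo and 81.6% ± 15.5 in Bama livers at room temperature (exact permutation p = 0.8, adjusted p = 0.96).

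The second SOX5 circle by counts, the 2403-base circle of exon and intron, had 175, 0 and 19.99 CPM in Hezuo livers in the cold, against 331, 146 and 150.0 CPM in Bama livers in the cold. In livers kept at room temperature it had 177, 193 and 603 CPM in Hezuo livers, against 170.5, 129 and 276 CPM in Bama livers. Its fold in the cold was -1.62 ± 0.70, and -3.95 without Hezuo liver 1. It was 0.74 ± 0.58 at room temperature (edgeR, adjusted p = 0.864), and -0.10 without Hezuo liver 3 at room temperature. As a class, the 7 circles of exon and intron had 351, 140 and 180 CPM in Hezuo livers in the cold, against 484, 293 and 506 CPM in Bama livers in the cold. At room temperature they had 314, 322 and 894 CPM in Hezuo livers, against 341, 202 and 345 CPM in Bama livers. The breeds overlapped at both temperatures, and Hezuo liver 3 at room temperature stood apart, above all other livers.

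The 329-base SOX5 circle averaged 145 CPM in Hezuo and 141.5 CPM in Bama livers at room temperature. It had 372.5, 46.6 and 39.98 CPM in Hezuo livers in the cold against 51.0, 201 and 150.0 CPM in Bama livers in the cold, and 118, 172 and 146 CPM in Hezuo livers at room temperature against 139.5, 147 and 138 CPM in Bama livers at room temperature, a fold there of 0.03 ± 0.70. The 450-base circle had 132, 0 and 59.98 CPM in Hezuo livers in the cold against 102, 274 and 18.7 CPM in Bama livers in the cold, and 157, 0 and 166 CPM in Hezuo livers at room temperature against 124, 221 and 166 CPM in Bama livers at room temperature. The breeds overlapped for both circles at both temperatures.

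The single-exon 211-base circle of SOX5 had no read in any of the 6 Hezuo livers. In Bama livers 1, 2 and 3 it had 1, 4 and 7 counts in the cold, 12 in all, and 0, 2 and 2 counts at room temperature. In the cold the pooled Bama counts were 3.62 times a floor of 3 counts over the Hezuo group, scaled to depth. This is a description that leaves out the spread between livers, and the circle passed the filter through Bama livers alone. At room temperature the counts were too few for a fold. The 2178-base circle had 0, 6 and 0 counts in Hezuo livers against 0, 0 and 1 in Bama livers in the cold, and 2, 0 and 9 counts in Hezuo livers against 0, 4 and 0 in Bama livers at room temperature. The 12 SOX5 circles below the filter had 2 to 9 counts each, and 7 of them were seen in 1 liver only.

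Markers of other liver cells were read as summed levels and gene by gene. The sums are in FPKM, which ran lower in Hezuo over all genes (median log2 ratio -0.31 in the cold and -0.21 at room temperature). The gene tests used TMM scaling, so sums and calls are on different scales. The summed level of 7 T and NK cell marker rows was 28.2 to 35.4 FPKM in Hezuo and 57.1 to 116 FPKM in Bama livers in the cold, and 22.4 to 34.7 FPKM in Hezuo and 41.7 to 127 FPKM in Bama livers at room temperature. Of these 7 rows, 1 was called. CD8A, which encodes a coreceptor chain of cytotoxic T cells, was lower in Hezuo livers at both temperatures (log2 fold -1.88 ± 0.39 in the cold and -2.41 ± 0.39 at room temperature, edgeR, adjusted p = 0.0317 and 0.0311). The 7 Kupffer cell and macrophage markers summed to 477 to 852 FPKM in Hezuo and 848 to 1440 FPKM in Bama livers in the cold, and to 348 to 461 FPKM in Hezuo and 462 to 744 FPKM in Bama livers at room temperature, with none called. Stellate and mesenchymal markers summed to 140 to 245 FPKM in Hezuo and 145 to 266 FPKM in Bama livers in the cold and to 243 to 428 FPKM in Hezuo and 391 to 888 FPKM in Bama livers at room temperature, and 1 of 7, LRAT, was called, higher in Hezuo in the cold. Endothelial markers summed to 240 to 244 FPKM in Hezuo and 250.0 to 256 FPKM in Bama livers in the cold and to 196 to 255 FPKM in Hezuo and 218 to 255 FPKM in Bama livers at room temperature, and 2 of 6, STAB2 and KDR, were called, higher in Hezuo in the cold. The 4 cholangiocyte markers summed to 3.96 to 9.59 FPKM over all livers, and neither they nor the hepatocyte markers held a called gene. Of all genes, edgeR called 2.76% between the breeds in the cold and 1.08% at room temperature. The part of these cells in the circRNA values was not tested.

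Partner genes of the 3 hosts were read from the gene table. None of 8 SOX family genes, 23 PP2A subunits and regulators and 24 centriole proteins was called between the breeds by edgeR at either temperature. Over all genes, 2.76% were called in the cold and 1.08% at room temperature. At an unadjusted p below 0.05 there were 2, 3 and 11 of the partner genes in the cold, where 21.1% of all genes were. At room temperature there were 1, 4 and 7, where 19.8% of all genes were. The median log2 fold of Hezuo over Bama was -0.14 in the cold and 0.17 at room temperature for the SOX genes, 0.02 and 0.06 for the PP2A genes, and -0.38 and -0.15 for the centriole genes, beside -0.007 and -0.003 over all genes. In the cold DESeq2 called 1 of 8 SOX genes (SOX6), 1 of 23 PP2A genes (IGBP1) and 3 of 24 centriole genes (CEP152, CEP350 and SASS6). Of all genes it called 9.06% there. At room temperature it called 1 of the 23 PP2A genes (PPME1) and no gene of the other lists, against 7.66% of all genes.

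SOX6, the usual partner of SOX5, averaged 2.41 ± 0.581 FPKM in Hezuo and 1.67 ± 0.196 FPKM in Bama livers in the cold, and 2.43 ± 0.864 FPKM in Hezuo and 2.40 ± 0.374 FPKM in Bama livers at room temperature (SD, n = 3 each). Its fold in the cold was 0.78 ± 0.22 (edgeR, adjusted p = 0.0786; DESeq2, adjusted p = 0.022). PPP2R1A, the alpha form of the PP2A scaffold, averaged 34.5 ± 1.45 FPKM in Hezuo and 35.8 ± 3.29 FPKM in Bama livers at room temperature, and no circRNA of it was listed. PPME1, which removes the methyl group from the PP2A catalytic subunit, averaged 6.0 ± 0.329 FPKM in Hezuo and 4.42 ± 0.889 FPKM in Bama livers at room temperature (fold 0.65 ± 0.16, edgeR, adjusted p = 0.0696; DESeq2, adjusted p = 0.0113).

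Among the centriole proteins, SASS6, which builds the cartwheel of a new centriole, averaged 1.90 ± 0.519 FPKM in Hezuo and 4.40 ± 0.453 FPKM in Bama livers in the cold (fold -0.92 ± 0.28, edgeR, adjusted p = 0.0896; DESeq2, adjusted p = 0.0248). CEP152, a scaffold that recruits the kinase PLK4, averaged 0.183 ± 0.0757 FPKM in Hezuo and 0.603 ± 0.0987 FPKM in Bama livers in the cold (fold -1.41 ± 0.37, edgeR, adjusted p = 0.0619; DESeq2, adjusted p = 0.00743). CEP350 averaged 4.31 ± 0.225 FPKM in Hezuo and 7.03 ± 0.819 FPKM in Bama livers in the cold. Its fold there was -0.39 ± 0.10 (edgeR, adjusted p = 0.058, and DESeq2, adjusted p = 0.00327). NIN, which sits with centriolin at the subdistal appendages, averaged 2.24 ± 0.312 FPKM in Hezuo and 3.91 ± 0.397 FPKM in Bama livers in the cold, with a fold of -0.50 ± 0.21 (edgeR, adjusted p = 0.206). Of the circRNAs of these partners, 5, 16 and 32 could be tested, and none was called by edgeR or DESeq2 in either comparison, where edgeR called 0.454% of all circRNAs at each temperature. Below an unadjusted p of 0.05 by edgeR there were 1, 2 and 2 of them in the cold, against 8.46% of all circRNAs. At room temperature there were 0, 2 and 1, against 7.94% of all circRNAs.

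The circRNAs of other hosts whose levels tracked the main circles were ranked by Pearson's r of log2 CPM over the 12 livers, as a description. Nearest to the SOX5 circle were a circle of NECTIN3, a cell adhesion gene (r = 0.899), a circle of ITGA9, an integrin subunit (0.898), and a circle of TXNDC11 (0.876). The TXNDC11 circle had 17, 10 and 12 counts in Hezuo livers in the cold, against 21, 26 and 29 counts in Bama livers in the cold, and the other 2 circles had no read in some of the Hezuo livers.

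Nearest to the PPP2R1B circle was a circle of CYP3A39, a pig cytochrome P450 (r = 0.93), with 37, 15 and 32 counts in Hezuo livers in the cold against 1, 5 and 1 counts in Bama livers in the cold, and 45, 15 and 41 counts in Hezuo livers at room temperature against 9, 13 and 5 counts in Bama livers at room temperature. A circle of SLCO1B3, a hepatocyte uptake transporter (0.918), and a circle of DPYS, which encodes dihydropyrimidinase of pyrimidine breakdown (0.914), came next. Nearest to the CNTRL circle were circles of CARMIL1 (0.92, on 10 counts in all), BTAF1 (0.872) and DUSP16 (0.864). Among gene rows, r was highest for LARP4 with the SOX5 circle (0.906), ECM1 with the PPP2R1B circle (0.947) and MFHAS1 with the CNTRL circle (0.934). With the gene row of its own host, the main circle had r = 0.22 for SOX5, 0.094 for PPP2R1B and 0.373 for CNTRL. These values are the highest among 9022 to 9029 circRNAs and 13532 genes, over livers that share breed and temperature.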

How the data were processed

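Liver RNA of 12 libraries was analysed, 3 in each of 4 groups. Per the labels' protocols, total RNA was depleted of ribosomal RNA and made into strand-specific libraries. The submitters' processing notes name fastp, and an aligner, counters or a genome build are not given in the labels or files used. For circRNAs, back-splice counts were deposited per library, together with RPM values made by the authors that entered no test. For genes, estimated counts were deposited, rounded here since 9.48% of nonzero values were fractional, together with FPKM values made by the authors that serve here as levels.

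Counts were scaled by TMM (factors 0.947 to 1.07 for circRNAs and 0.874 to 1.2 for genes) and fitted for all 12 libraries and 4 groups with edgeR 4.0.16 (robust quasi-likelihood test, R 4.3.3). circRNAs and host sums were kept with 2 counts or more in 3 libraries or more and 10 in total, and genes passed filterByExpr (minimum count 10, minimum total 15). Log2 circular to linear ratios, with 0.5 added to both counts and the median over hosts subtracted per library, were fitted with limma 3.58.1. For edgeR folds, the SE is the absolute log2 fold divided by the square root of F. For the ratios, the SE is that of the limma fit. P-values were adjusted by Benjamini-Hochberg over all features tested and called below 0.05. Single values per library were compared by exact permutation tests. Alternatives were DESeq2 1.42.0, its size factors, other filters and pseudocounts, the room temperature livers alone, a replicate block, a covariate for Y-linked RNA and leaving out each library.

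The members, gene lists and tests were chosen with earlier results of these data known. Per host, the 4 circles with the most counts and the 2 with the largest fold in the cold are given by library. The 3 partner lists and 6 marker lists were set from known function. Replicate libraries correlated at r = 0.626 to 0.706 over circRNAs and 0.963 to 0.977 over genes on log2 CPM, and none were merged. The scripts were tested on simulated counts.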

Additional observations from a re-analysis of the deposited data

How the results depend on the processing

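Of the alternatives tried for values of the members at room temperature, 133 of 142 other settings and 235 of 257 fits without 1 library kept both the direction and the side of the threshold. In the cold, 378 of 397 kept the value within its error and 19 did not. Within a group, Y-linked RNA differed only among the Bama livers in the cold, where liver 2 had none. A covariate for it was therefore set by that liver against Bama livers 1 and 3 in the cold. Folds fitted with the covariate carry this deviation to room temperature and do not separate breed from Y-linked RNA there. With a covariate for Y-linked RNA, which runs with breed at room temperature, the log2 fold of Hezuo over Bama there was 1.60 for the SOX5 450-base circle, -0.78 for the SOX5 2178-base circle, 1.18 for the PPP2R1B 380-base circle, and -0.08, -0.195 and -0.005 for the gene rows of SOX5, PPP2R1B and CNTRL, each with its sign turned, while the PPP2R1B host sum stood at 2.30 (adjusted p = 0.195). Without 1 library, the fold at room temperature ranged from -0.096 to 1.098 for the SOX5 2403-base circle, -0.16 to 0.10 for the SOX5 329-base circle and -0.19 to 4.99 for the SOX5 2178-base circle, and for the gene rows from -0.07 to 0.17 (SOX5), -0.069 to 0.203 (PPP2R1B) and -0.082 to 0.122 (CNTRL). Counts of calls over all features moved more. At room temperature, edgeR called 41 circRNAs (22 by DESeq2, 2 with the Y-linked covariate, 26 to 43 without 1 library), 30 host sums (17, 6, and 19 to 38), 20 ratios (37 with no filter, 3 with the covariate, 11 to 21) and 146 genes (1036 by DESeq2, 3 with the covariate, 8 without Hezuo replicate 1 and 593 without Bama replicate 2). In the cold, 374 genes were called (1226 by DESeq2, 116 with only the cold libraries, 132 with the covariate, and 69 to 423 without 1 library). The cause of these shifts was not tested. Same-numbered Hezuo and Bama libraries of a temperature showed no pairing, with correlations of their deviations from -0.198 to 0.055 over circRNAs and genes. Same-numbered libraries of a breed were not compared between the temperatures. A replicate block took the genes called at room temperature to 35, and gave the PPP2R1B host sum a fold of 1.24 with an adjusted p of 0.0237. With 39117 to 75616 back-splice counts per library, circles under about 10 counts could show only very large differences.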
